A study of Mus musculus with 18 samples.

Results

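Transcription factors that give thymocytes their T-lineage identity were followed through beta-catenin-driven lymphoma in the mouse. The 10 genes were Bcl11b, Gata3, Tox, Runx1, Runx3, Satb1, Ikzf1, Ets1, Myb and Zbtb7b, taken as a list of names with all their probe sets. They are 10 of 18193 genes with a probe set of their own symbol on the array, and all 32 of their probe sets passed the filter on low signals. Total RNA of thymocytes or tumour masses was hybridized to Affymetrix mouse arrays, with 1 array for each of 18 independent mice. The control group held 5 mice, which the design text calls LckCre and the sample labels call wild type. The second group held 5 CD4Cre-Ctnnbex3 mice, in which Cre driven by Cd4 sequences acts on a beta-catenin allele so that the protein is stabilised, sampled before T-cell transformation. The third group held 8 mice of the same genotype with lymphoma. If the controls carried Lck-driven Cre, the Cre driver and the beta-catenin allele cannot be told apart in comparisons with control. If they were wild type, the presence of Cre and the allele cannot be told apart there either. Ages were not given in the sources used here.

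Progenitors that enter the thymus become T cells by switching on a set of transcription factors while the options for other blood lineages are closed. Gata3, a zinc-finger factor, acts early and again when CD4 cells are made. Bcl11b, a zinc-finger repressor, completes commitment, and Runx1 and Runx3 are DNA-binding partners of Cbfb that regulate the Cd4 and Cd8 genes. Satb1 organises chromatin loops in thymocytes, Ikzf1 encodes Ikaros, Ets1 and Myb support thymocyte survival and receptor gene rearrangement, Tox is needed for CD4 lineage cells, and Zbtb7b encodes ThPOK, the factor that fixes the CD4 choice.

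The 250 bases before the start sites of the members were searched for short motifs, to show the sequence that lies before these genes. The RefSeq promoter table of GRCm38.p6 matched 8 of the 10 members with 16 start sites, and had no entry used for Tox or Ets1. The letters were searched on both strands. CTTTGA, the core of the TCF/LEF motif through which beta-catenin acts, was in 1 of the 16 and in 13.8% of all 32851 promoters. TGTGGT, the RUNX core, was in 2 of 16 and in 14% of all. CCGGAA, an ETS core, was in 2 of 16 and in 12% of all. TGGGAA, an Ikaros core, was in 3 of 16 and in 21.6% of all. AGATAA, the core bound by the family of Gata3, was in 0 of 16 and in 10.0% of all. A match describes letters and does not show that a factor binds there. The stretches below, 5′ to 3′ on the gene's strand, each hold in capitals the TCF/LEF core or a core searched for the family of some member. Only that of Runx3 holds the core of the gene's own family. Matches before starts of Runx1 (ETS) and Zbtb7b (RUNX and Ikaros) are not printed.
Bcl11b: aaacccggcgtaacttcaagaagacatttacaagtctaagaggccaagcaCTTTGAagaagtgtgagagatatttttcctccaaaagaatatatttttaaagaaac
Gata3: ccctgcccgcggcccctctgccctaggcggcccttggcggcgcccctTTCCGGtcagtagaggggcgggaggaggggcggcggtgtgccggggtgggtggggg
Runx3: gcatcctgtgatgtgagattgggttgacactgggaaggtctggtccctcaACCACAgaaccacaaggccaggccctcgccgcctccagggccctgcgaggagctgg
Satb1: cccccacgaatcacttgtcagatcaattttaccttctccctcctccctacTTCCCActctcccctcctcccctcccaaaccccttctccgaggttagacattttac

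The Bcl11b stretch lies at chr12:108003448-108003553 on the minus strand, and its TCF/LEF core begins 89 bases before the start. That of Gata3 lies at chr2:9878748-9878850 on the minus strand, with the reverse complement of the ETS core 203 bases before the start. That of Runx3 lies at chr4:135120461-135120566 on the plus strand, with the reverse complement of the RUNX core 134 bases before the start and a second copy, in lower case, 126 bases before it. The same stretch holds the Ikaros core, in lower case, 154 bases before the start. That of Satb1 lies at chr17:51812069-51812174 on the minus strand, with the reverse complement of the Ikaros core 70 bases before the start.

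The arrays had median signals of 125 to 166, and the number of mice limits the precision. Signals are given as log2 of the authors' dChip intensity with a floor at 5.74. A probe set is said to rise or fall where the limma adjusted p over 24364 probe sets is under 0.05. The gene call is that of its leading probe set, the one with the highest mean over the 18 arrays. By sex-linked genes, the mice before transformation were all 5 male, the controls 3 male and 2 female, and the lymphomas 1 male and 6 female with 1 that gave both signals. Sex and transformation can therefore hardly be told apart in the lymphomas. Mice numbered 1 and 2 tended to deviate together, so each count of member genes is also given for mice 1 and 2 and for the rest. RNA came from whole thymocyte or tumour samples, in which fewer T cells and less RNA per T cell cannot be told apart.

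Before transformation, Tox, Myb and Gata3 were higher than in control thymocytes and Zbtb7b was lower. In this comparison 3 member genes rose and 1 fell, where 4.47% of all leading probe sets rose and 6.33% fell. Of the 32 member probe sets 6 rose and 4 fell, against 4.77% and 6.73% of all probe sets. The groups did not overlap for 3 member probe sets that were higher and 3 that were lower, against 10.9% of all probe sets in either direction. The median member difference was 0.19, and that of all leading probe sets was -0.02. The count was 1 gene among mice numbered 1 and 2 and 2 genes among mice numbered 3 and up. It was 1 gene among mice with male signals and 1 gene with all groups in 1 fit. Of 7 T-cell markers 5 already fell here, with a median of -0.37. Of 7 granulocyte markers 5 fell, with a median of -1.55, and their summed signal was 3217 to 9828 in controls and 1410 to 2277 before transformation. The part of either cell type in the member differences was not tested.

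In lymphomas 8 of the 10 genes were lower than before transformation on the deposited scale, Satb1, Bcl11b and Tox by the most. None rose, and Runx3 and Zbtb7b did not pass. The background was wide, with 18.5% of all leading probe sets lower and 16.1% higher. Of the member probe sets 20 fell and 0 rose, where 20.2% of all fell and 16.0% rose, and 16 did not overlap, against 16.7% of all. The median member difference was -0.83 and that of all leading probe sets -0.03. The count was 5 genes among mice numbered 1 and 2 and 8 among mice numbered 3 and up. The share of rises among all calls was 44.2% on the deposited scale, 55.8% after quantile normalization and 54.5% after median centring. Member genes that fell were 8 after quantile normalization and 7 after median centring, which lost Runx1 (-0.76, limma adjusted p = 0.0828).

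Against control, 9 genes fell in lymphomas and Runx3 rose, where 22.7% of all leading probe sets fell and 17.3% rose. Of the member probe sets 21 fell and 1 rose, against 23.9% and 16.9% of all. The groups did not overlap for 12 that were lower and 0 that were higher, against 20.4% of all in either direction. The count was 4 genes among mice numbered 1 and 2 and 9 among mice numbered 3 and up. Rises made up 41.4% of all calls, 55.4% after quantile normalization and 52.1% after median centring. Member genes that fell were 8 after quantile normalization and 6 after median centring, and Runx3 still rose. Median centring lost Gata3 (-0.33, limma adjusted p = 0.141), Runx1 (-0.71, 0.0891) and Ikzf1 (-0.26, 0.0550). Both comparisons with lymphoma share the lymphoma arrays, and both with control share the control arrays.

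These falls depended on the scale. Markers of T cells fell too: 5 of 7 fell from before transformation to lymphoma, with a median difference of -0.92. Their summed signal was 30445 to 34435 in controls, 23585 to 31362 before transformation and 10161 to 17636 in lymphomas, and none was at the floor throughout. Of 8 macrophage markers 4 rose in lymphomas and 1 fell, with sums of 3034 to 4920, 1805 to 5089 and 6041 to 21752. When each array was centred on the mean log2 signal of its 7 T-cell markers, which was decided on once the data had been seen, the median of all probe sets moved to 0.45 before transformation, 0.99 from there to lymphoma and 1.45 from control to lymphoma. On that scale 2 members fell from before transformation to lymphoma and 3 rose, against 8 and 0 on the deposited scale, while 1.47% of all probe sets fell and 75.6% rose.

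By their leading sets, Satb1 and Bcl11b were the members that still fell relative to the T-cell markers. This scale is not independent of the members, because the markers Cd3d, Cd3e and Cd3g are also reported thymocyte targets of the members. Satb1 fell by 1.21 (limma adjusted p = 0.000284) and Bcl11b by 0.55 (0.0444) from before transformation to lymphoma. Tox was lower by -0.55 and did not pass (0.0621). Gata3, Runx1, Ets1 and Myb turned sign without passing, at 0.22 (limma adjusted p = 0.449), 0.19 (0.528), 0.20 (0.451) and 0.05 (0.849). Ikzf1 turned from a fall to a rise of 0.54 (limma adjusted p = 0.0430), and Runx3 and Zbtb7b rose by 1.33 and 1.16. Against control, Satb1 fell by 0.77 relative to the markers (limma adjusted p = 0.00596). There too the groups overlapped, with lymphomas at -2.30 to 1.63 (SD 1.24) and controls at 1.03 to 1.31 (SD 0.13). The limma test draws the spread of each probe set towards that of the others. These p-values therefore do not measure the spread of Satb1 among lymphomas alone. Against control Bcl11b did not pass at -0.30 (limma adjusted p = 0.237), and Tox did not pass at 0.52 (0.0605). Gata3, Runx1, Runx3, Ikzf1, Ets1, Myb and Zbtb7b then rose, by 1.08, 0.71, 2.43, 1.16, 0.91, 0.94 and 0.92, where 90.6% of all probe sets rose. Of these, Runx3 alone exceeded the median of all probe sets, 1.45.

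**Figure D1:**
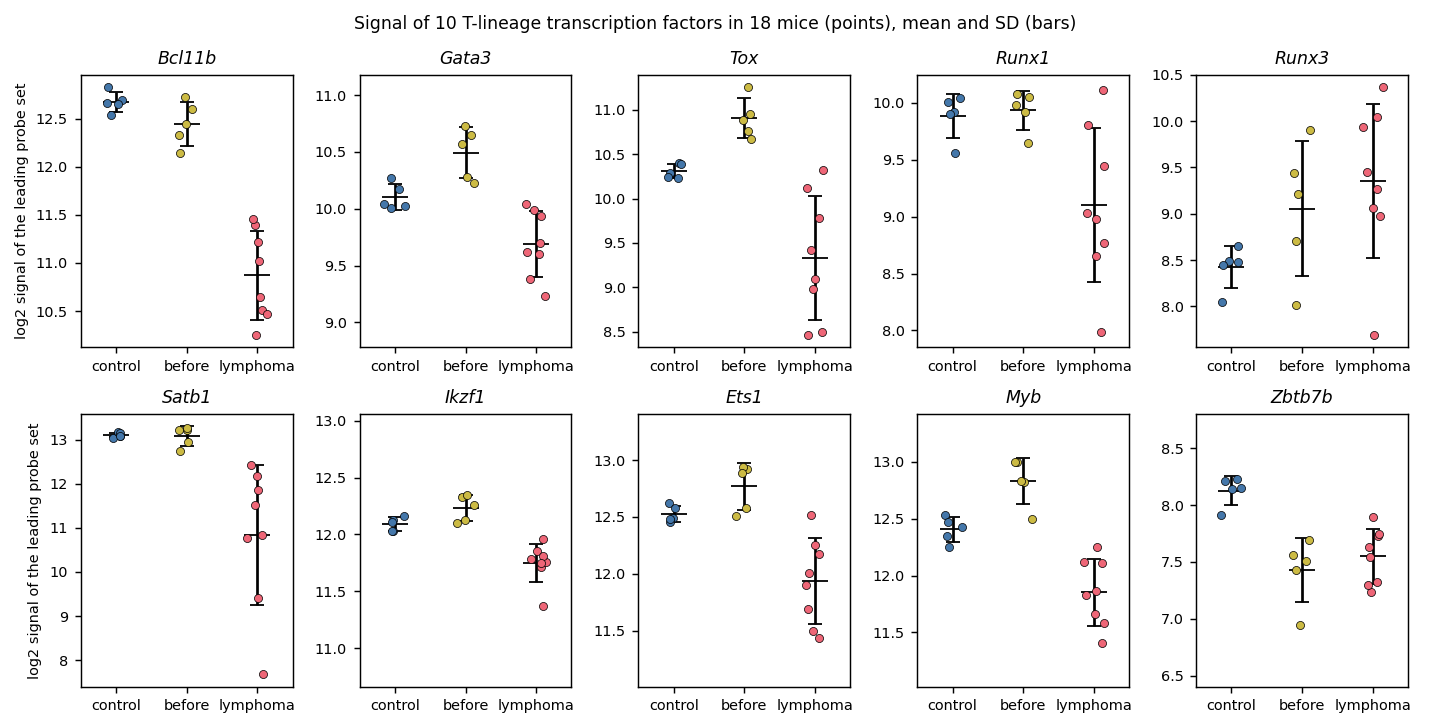
Log2 signal of the leading probe set (y axis) of each of the 10 genes in control, before-transformation and lymphoma mice; points are mice, bars the mean and SD, and each panel has its own axis. The 8 lymphomas lie below all mice before transformation for 6 genes on this deposited scale; relative to T-cell markers Gata3, Runx1, Ikzf1, Ets1 and Myb turn to the other sign.

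Satb1, the chromatin organiser, showed the widest range. Its leading probe set read 13.09, 13.04, 13.18, 13.14 and 13.07 in the 5 controls. It read 13.21, 12.94, 12.75, 13.27 and 13.22 before transformation. In the 8 lymphomas the lowest was 7.68, the median 11.17 and the highest 12.43. The first groups overlapped, and every lymphoma lay below every mouse of both. The difference before transformation was -0.03 ± 0.10 (SE) and did not pass (limma adjusted p = 0.933). From there to lymphoma Satb1 fell by 2.24 ± 0.63, or 4.73-fold (limma adjusted p = 0.0121). Lymphoma 3 was lowest, and without it the fall was 1.79 (limma adjusted p = 0.00421).

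The other Satb1 probe sets fell in lymphomas as well, and 1436182_at fell earlier. Probe set 1416008_at fell by 1.97 and 1436182_at by 2.26. Probe set 1439449_at fell by 3.87, or 14.7-fold, with 2 lymphomas at the floor, so the fold understates the change. Probe set 1439315_at had 6 of 8 lymphomas at the floor and was at least 9.0-fold lower. All 5 Satb1 sets also fell from before transformation to lymphoma relative to the T-cell markers, where the groups overlapped for the leading set. Before transformation 1436182_at already fell by 0.81 ± 0.12 (limma adjusted p = 0.00113), while the leading set did not pass. That fall was lost when 1 fit held all groups (limma adjusted p = 0.480) and among mice 1 and 2, where it was -0.46 (0.103). The gap between the leading set and 1436182_at was 1.22 ± 0.16 (SD, n = 5) in controls and 2.01 ± 0.14 (n = 5) before transformation.

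**Figure D2:**
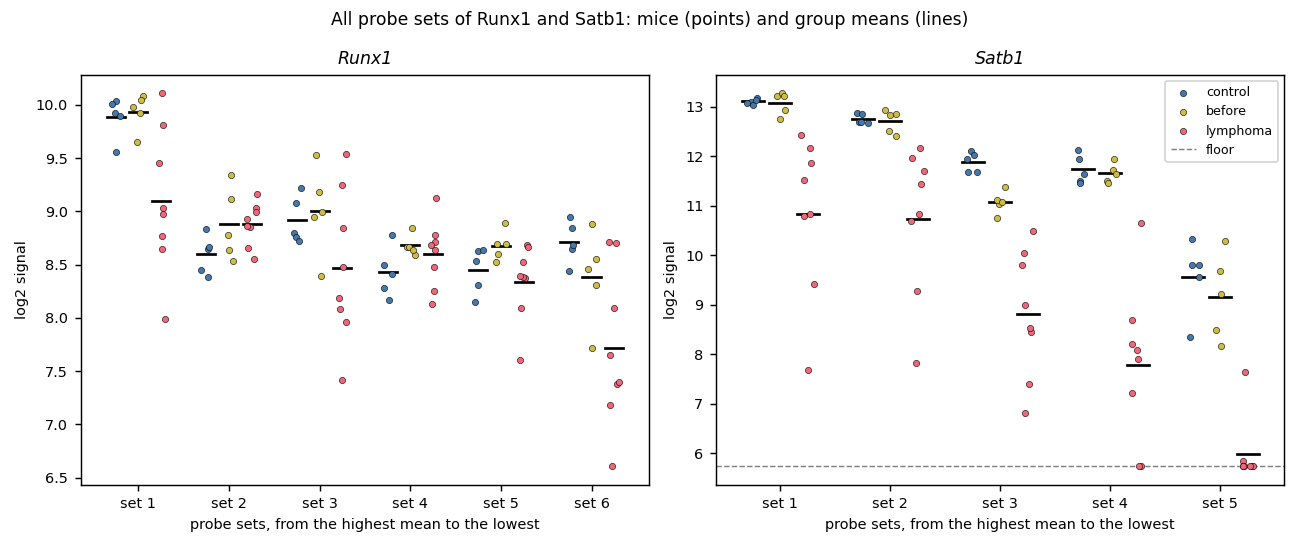
Log2 signal (y axis) of every probe set of Runx1 and of Satb1, ordered from the highest mean to the lowest; points are mice, short lines group means and the dashed line the floor at 5.74. All 5 Satb1 sets are lower in lymphomas, whereas the 6 Runx1 sets differ among themselves, with differences from before transformation of -0.84 to -0.01 that turn positive for all 6 sets relative to T-cell markers (0.19 to 1.03).

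Bcl11b, the commitment factor, was lower in every lymphoma than in any other mouse. Its leading set read 12.66, 12.54, 12.69, 12.65 and 12.83 in controls and 12.73, 12.44, 12.14, 12.60 and 12.33 before transformation. The lymphomas ran from 10.25 through a median of 10.84 to 11.46, without overlap with either group. Bcl11b fell by 1.58 ± 0.20 (SE), or 2.99-fold, from before transformation (limma adjusted p = 4.79e-05) and by 1.80 ± 0.19 from control (4.29e-06). The other sets fell by 1.03 to 1.81 from before transformation, but relative to the T-cell markers the fall was kept by 2 of the 4 sets. There 1435227_at lay at -0.24 (limma adjusted p = 0.376) and 1452966_at at 0.00 (0.997), while 1438784_at fell by 0.78 (0.00959). Before transformation the leading set did not pass, at -0.23 ± 0.10 (limma adjusted p = 0.230). Probe sets 1452966_at and 1438784_at fell there, by 0.61 ± 0.10 and 0.48 ± 0.13 (limma adjusted p = 0.00164 and 0.0323). Both were lost relative to the T-cell markers (-0.14 and -0.01), and the first also among mice 1 and 2 (-0.45). The second was lost in 13 of 26 alternatives, among them those without control 1, 2, 3 or 4 or before-transformation mouse 2, 3 or 5 (-0.46 to -0.44).

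Tox, an HMG-box factor of CD4 lineage development, rose before transformation and fell in lymphomas. It read 10.29, 10.40, 10.23, 10.24 and 10.39 in controls and 11.26, 10.76, 10.67, 10.89 and 10.96 before transformation, with no overlap. In lymphomas it ran from 8.46 through a median of 9.25 to 10.32, so the highest lymphoma reached the control range. Tox rose by 0.60 ± 0.11, or 1.51-fold, before transformation (limma adjusted p = 0.00303), which was lost with all groups in 1 fit (0.296) and among mice 1 and 2 (0.0987). It fell by 1.58 ± 0.29, or 2.98-fold, from there to lymphoma (limma adjusted p = 0.000824), a call that was lost relative to T-cell markers. Probe set 1425483_at also rose before transformation, by 0.65, and 1442039_at did not pass, at 0.15. From control to lymphoma the leading set fell by 0.98 ± 0.28 (limma adjusted p = 0.0123). That fall was lost among mice 1 and 2 (-0.13, limma adjusted p = 0.391). Neither 1425483_at nor 1442039_at passed from control to lymphoma, at -0.70 (limma adjusted p = 0.0551) and -0.38 (0.0543).

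Gata3 rose slightly before transformation and fell in lymphomas. Its 1 probe set read 10.17, 10.01, 10.04, 10.02 and 10.27 in controls and 10.57, 10.23, 10.28, 10.73 and 10.65 before transformation. The lymphomas ran from 9.23 through a median of 9.66 to 10.04, below every mouse before transformation but within reach of the controls. The rise was 0.39 ± 0.11 (limma adjusted p = 0.0387), and it was lost in 14 of 27 alternatives, among them those without control 1, 2, 3 or 4 or before-transformation mouse 1, 4 or 5. From control to lymphoma Gata3 fell by 0.42 ± 0.14 (limma adjusted p = 0.0249), which was lost after quantile normalization (-0.29, limma adjusted p = 0.0506), after median centring (-0.33, 0.141), among mice 1 and 2 (-0.10, 0.486) and without control 1 (-0.40) or 5 (-0.37). The difference from before transformation to lymphoma was -0.81 ± 0.15 (limma adjusted p = 0.000879), and relative to T-cell markers it turned to 0.22. Among mice 1 and 2 it did not pass, at -0.41 (limma adjusted p = 0.123).

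Myb, needed for thymocyte survival, rose before transformation and fell in lymphomas with all 3 of its probe sets. The leading set, whose name marks probes that can also match related sequences, read 12.43, 12.35, 12.53, 12.47 and 12.25 in controls. It read 13.00, 12.82, 12.50, 13.00 and 12.83 before transformation, where mouse 3 fell within the control range. The lymphomas ran from 11.41 through a median of 11.85 to 12.25. The rise was 0.42 ± 0.10, or 1.34-fold (limma adjusted p = 0.0140), and the difference from there to lymphoma was -0.98 ± 0.14, or 1.97-fold (0.000118). The rise was lost after median centring, with all groups in 1 fit, among mice 3 and up and among mice with male signals, at 0.36 to 0.42 (limma adjusted p = 0.0544 to 0.164). The fall turned to 0.05 relative to T-cell markers.

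Ets1, Ikzf1 and Runx1 did not pass before transformation and fell in lymphomas on the deposited scale. Ets1 read 12.49, 12.46, 12.62, 12.58 and 12.48 in controls and 12.92, 12.58, 12.51, 12.94 and 12.89 before transformation. Its lymphomas ran from 11.44 through a median of 11.96 to 12.52, which overlapped both groups. The difference from before transformation was -0.83 ± 0.17 (limma adjusted p = 0.00157). Probe set 1426725_s_at of Ets1 fell too, by 0.70, while 1422027_a_at and 1422028_a_at did not pass, at -0.09 and 0.01.

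Ikzf1, the gene of Ikaros, had the smallest fall among the 8 genes that passed. It read 12.03, 12.03, 12.16, 12.13 and 12.11 in controls and 12.33, 12.13, 12.10, 12.35 and 12.26 before transformation. Its lymphomas ran from 11.37 through a median of 11.77 to 11.96, below all mice of both groups. The difference from before transformation was -0.49 ± 0.09, or 1.40-fold (limma adjusted p = 0.00116), and became a rise relative to T-cell markers. Among mice 1 and 2 it did not pass, at -0.45 (limma adjusted p = 0.0586). Probe set 1421303_at did not pass, at -0.18. From control to lymphoma the leading set fell by 0.34 ± 0.09 (limma adjusted p = 0.00547), which was lost among mice 1 and 2 (-0.25, 0.0593).

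Runx1 depended on the probe set. The leading set read 10.04, 10.01, 9.92, 9.90 and 9.56 in controls and 10.08, 9.98, 9.65, 10.05 and 9.92 before transformation. Its lymphomas ran from 7.99 through a median of 9.0 to 10.11, and lymphoma 1 exceeded every other mouse. The difference from before transformation was -0.84 ± 0.28 (limma adjusted p = 0.0298), and it was lost or turned in 9 of 29 alternatives. Among mice numbered 1 and 2 it was -0.07 (limma adjusted p = 0.784), and it did not pass without lymphoma 5 (-0.79) or without before-transformation mouse 1, 2, 4 or 5. From control to lymphoma Runx1 fell by 0.79 ± 0.28 (limma adjusted p = 0.0345), which was lost without control 1, 2, 3 or 4 or lymphoma 4, 5, 6 or 7 (-0.79 to -0.72). The other 5 probe sets of Runx1 did not pass from before transformation to lymphoma, with differences of -0.67 to -0.01.

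Runx3, which silences Cd4 in CD8 lineage cells, moved the other way. Its leading set read 8.65, 8.48, 8.05, 8.49 and 8.45 in controls and 8.71, 8.01, 9.91, 9.44 and 9.21 before transformation. The lymphomas ran from 7.69 through a median of 9.36 to 10.37. Mice within each of the later groups differed by more than the group means did. Mouse 3, the highest before transformation, had the lowest summed T-cell marker signal of its group (23585). Its sums for B-cell (2697), macrophage (5089) and NK-cell markers (2769) were the highest there. The part of these cells in its Runx3 signal was not tested. The rise from control to lymphoma was 0.93 ± 0.34, or 1.90-fold (limma adjusted p = 0.0403), and it was lost in 14 of 29 alternatives, among them those without any 1 control or without lymphoma 3, 4, 5, 7 or 8 (0.78 to 0.98). The difference before transformation was 0.63 ± 0.29 (limma adjusted p = 0.232), and probe set 1421467_at passed in no comparison.

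Zbtb7b, the gene of ThPOK, fell before transformation and did not pass from there to lymphoma. It read 8.21, 8.23, 8.15, 8.14 and 7.91 in controls and 7.56, 6.95, 7.69, 7.43 and 7.51 before transformation, without overlap. The lymphomas ran from 7.24 through a median of 7.59 to 7.90. The difference before transformation was -0.70 ± 0.14, or 1.62-fold (limma adjusted p = 0.00737), and the difference from there to lymphoma was 0.13 ± 0.15 (0.550). Relative to T-cell markers the difference between control and before transformation was -0.23 and did not pass (limma adjusted p = 0.155), and that between before transformation and lymphoma was a rise of 1.16 (0.00107). The fall before transformation was also lost among mice 1 and 2 (-0.96), among mice 3 and up (-0.52) and among mice with male signals (-0.64). Probe set 1420663_at did not pass before transformation, at -0.28.

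**Figure D3:**
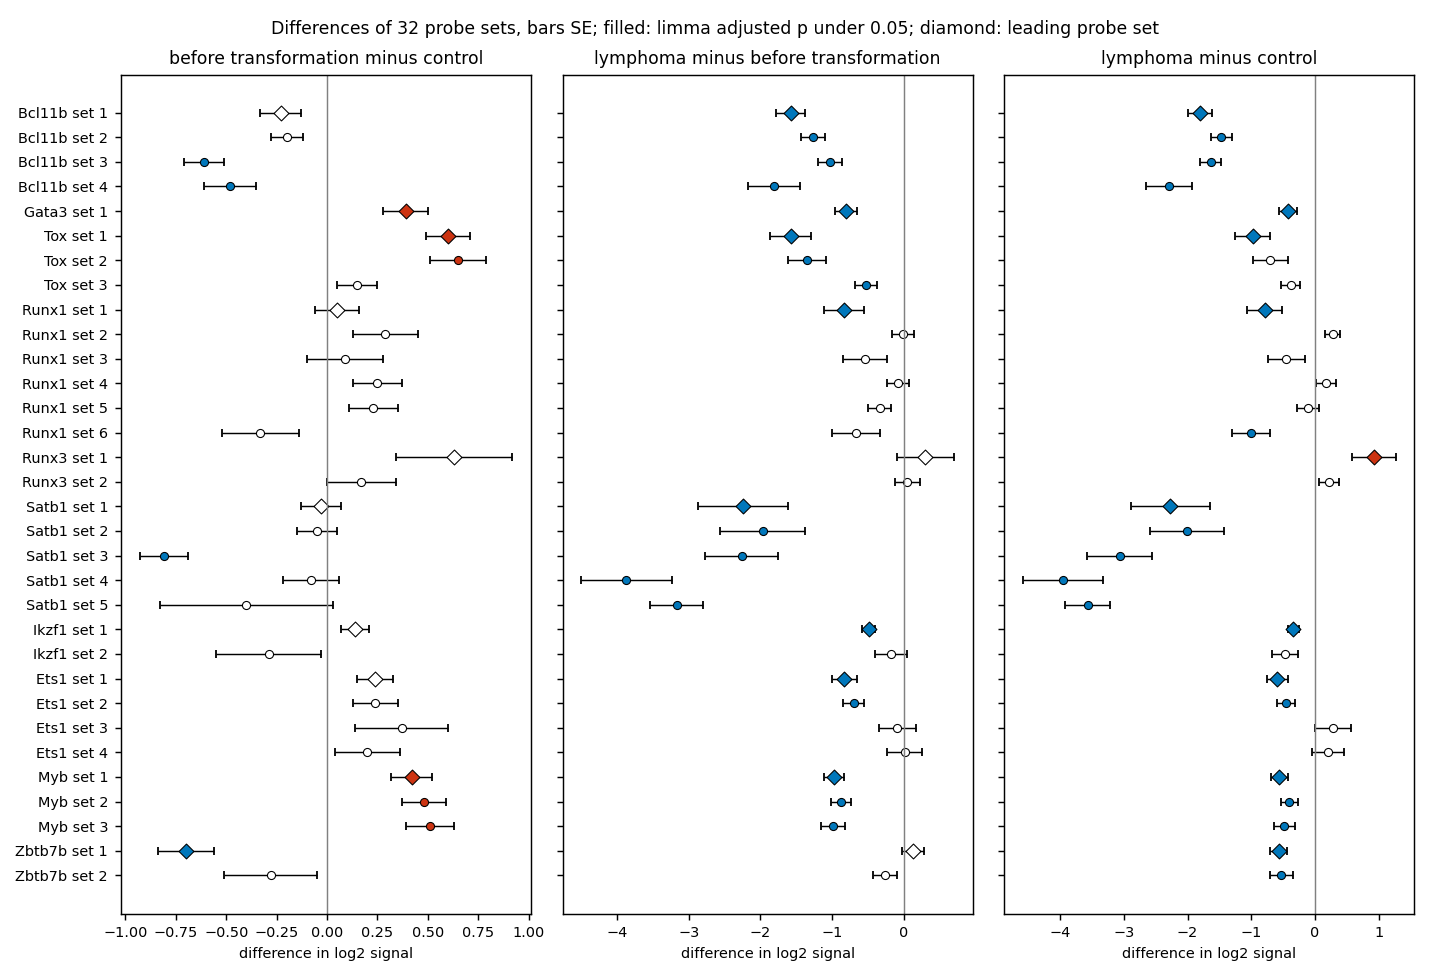
Difference in log2 signal (x axis) of each of the 32 probe sets in the 3 comparisons, with SE as bars; filled symbols passed the limma test and diamonds are leading sets. On the deposited scale shown, 20 of 32 sets fell from before transformation to lymphoma and 0 rose, against 20.2% and 16.0% of all; centred on T-cell markers 2 member genes fell and 3 rose, where 1.47% and 75.6% of all probe sets did.

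The lymphomas differed from each other in the signals of the members. Ranks of other genes were not taken, so these differences cannot be called particular to the members. Lymphoma 6 was among the lowest 2 for 9 of 10 genes, with a mean rank of 1.8 of 8. It also had the lowest T-cell marker sum among the lymphomas. Its summed signals of cofactors and paralogues (14458), other T-lineage factors (9959) and reported thymocyte targets (16825) were the lowest too. Lymphomas 1 and 7 had the highest mean rank, 6.3 each, and lymphoma 7 had the highest marker sum. Lymphoma 3 was lowest for Satb1, Bcl11b and Runx1 and highest for Runx3. It also had the highest summed signal of B-cell markers among the lymphomas (5526, median 1630). Its Satb1 signal was 42.0-fold below the mean before transformation, and that of lymphoma 7 was 1.57-fold below it. The part of T-cell or B-cell content in these ranks was not tested.

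**Figure D4:**
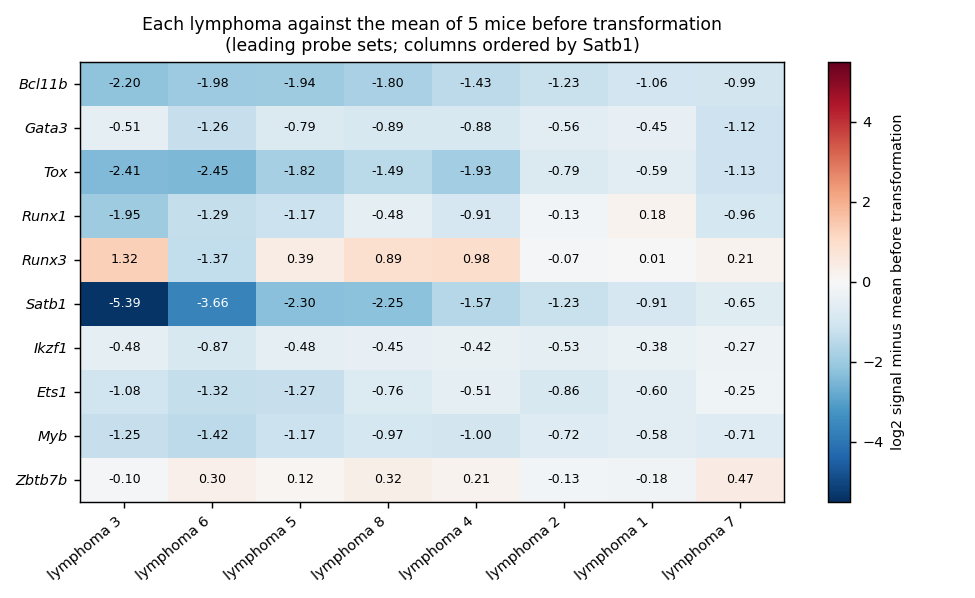
Difference in log2 signal of each lymphoma from the mean of the 5 mice before transformation (colour and printed value), with genes in rows and lymphomas in columns ordered by Satb1. Satb1 runs from -5.39 in lymphoma 3 to -0.65 in lymphoma 7, and Runx3 from -1.37 in lymphoma 6 to 1.32 in lymphoma 3; values are on the deposited scale, not relative to T-cell markers.

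Related factors were mixed. Of 23 cofactors and paralogues tested, 3 rose and 6 fell from before transformation to lymphoma, with a median of -0.18. Of all leading probe sets 16.1% rose and 18.5% fell there, with a median of -0.03. Ets2, an Ets1 paralogue, rose by 0.61 ± 0.11 before transformation and fell by 1.75 ± 0.34 in lymphomas. Ikzf2, which encodes Helios, fell by 1.96 ± 0.32 before transformation (limma adjusted p = 0.00170), and Ikzf3, which encodes Aiolos, rose by 0.86 ± 0.15 (0.00304). Tox2 rose by 0.42 ± 0.11 in lymphomas.

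Of 18 other T-lineage factors tested, 3 rose and 8 fell before transformation, and 1 rose and 6 fell from there to lymphoma. Of all leading probe sets, 4.47% rose and 6.33% fell before transformation, and 16.1% rose and 18.5% fell from there to lymphoma. Notch1, the receptor that starts T-cell specification, fell by 2.03 ± 0.11 before transformation (limma adjusted p = 4.36e-07). It was at least 8.97-fold lower again in lymphomas, where 5 of 8 mice were at the floor. Id3, an inhibitor of E proteins, fell by 3.21 ± 0.40 before transformation. Of 12 factors of other blood lineages tested, 0 passed before transformation, and 4 rose from there to lymphoma: Cebpb by 1.84, Lyl1 by 0.89, Lmo2 by 1.10 and Spi1 by 0.71. Macrophages express Cebpb and Spi1, and their markers rose in the same arrays; their part in these rises was not tested.

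Among 15 reported thymocyte targets of the members, 1 rose and 7 fell before transformation, with a median of -0.34. From there to lymphoma 0 rose and 11 fell, with a median of -1.01. The shares of all leading probe sets that rose and fell were 4.47% and 6.33% before transformation, then 16.1% and 18.5%. Ccr9, a thymic homing receptor, fell by 1.23 ± 0.06 before transformation. Ptcra, which encodes the pre-T-cell receptor alpha chain, fell by 1.78 ± 0.11 there and was at the floor in all 8 lymphomas. Cd8b1 fell by 1.01 ± 0.11 in lymphomas. Cd3d, Cd3e and Cd3g of this list are also T-cell markers.

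By profile over the 18 arrays, the genes most like Bcl11b were Csrnp1, Rnf167 and Cd247, with root-mean-square differences of 0.16, 0.21 and 0.21. Those most like Tox were Sit1, Ehhadh and Stx6, at 0.20, 0.23 and 0.24. Those most like Satb1 were Sh2d1a, Eif4e3 and Ldhb, at 0.49, 0.56 and 0.57. Each was taken from 14018 other genes, and Cd247 is a T-cell marker.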

How the data were processed

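The authors deposited 1 intensity per probe set and array on a linear scale, from dChip per the series' own description; for its version, model and scaling the sources used here give nothing. Groups and mouse numbers came from the sample titles. Values, blanks included (1.20%), were floored at the 20th percentile of all values (53.5) and log2 was taken. Probe sets with 1 symbol in the platform annotation (34945 of 45101; 932 had several and 9160 none) and a signal above the 40th percentile (109) on at least 5 arrays were tested, 24364 in all. Each comparison was fitted on its 2 groups with limma 3.58.1 in R 4.3.3, two-sided, with an intensity trend and Benjamini-Hochberg adjustment. The fit was first tested on simulated data. All probe sets of the 10 members are described. From each gene list up to 4 genes with the smallest adjusted p are named, and for members whose group means span at least 1 the 3 nearest profiles. The members and lists were chosen with earlier results of these data known. In all 35 alternatives were run, 18 of which left out 1 mouse. Of them 2, leaving out blank values and centring on T-cell markers, were added after the data were seen. Same-numbered mice did not all deviate together (correlations of -0.108 to 0.387), so numbers were not taken as pairs.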

Additional observations from a re-analysis of the deposited data

Results flagged for a closer look

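In 6 of 96 groups of a member probe set, 1 mouse lay apart from its group by Dixon's test, and chance gives about 1 in 20. Control 5 was the lowest control for Bcl11b 1438784_at (10.82, next 11.31), Myb 1422734_a_at (11.50, next 11.90) and Zbtb7b 1455071_at (7.91, next 8.14). Control 1 was lowest for Tox 1442039_at (8.71, next 8.94). Lymphoma 6 was lowest for Ikzf1 1436312_at (11.37, next 11.71). Lymphoma 7 was highest for Satb1 1439315_at (7.63, next 5.84), where 6 of the other lymphomas were at the floor.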

How the results depend on the processing

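Centring on T-cell markers, chosen after the data were seen, was the setting that turned the direction of calls. It called 15062, 18782 and 22345 probe sets (before transformation against control, lymphoma against before transformation, lymphoma against control), of which 96.6%, 98.1% and 98.8% rose, against 2801, 8825 and 9955 in the main analysis, and 8, 5 and 8 member genes. From control to before transformation it turned Bcl11b 1435227_at to 0.27 and Satb1 to 0.44, 0.42 and 0.39 (1416007_at, 1416008_at, 1439449_at). Values that passed on neither scale turned too: there the leading Bcl11b set went to 0.24, Runx1 1440878_at to 0.14, Satb1 1439315_at to 0.07, Ikzf1 1421303_at to 0.18 and Zbtb7b 1420663_at to 0.19, and from there to lymphoma Runx1 1422865_at to 0.49 and 1440878_at to 0.36. From there to lymphoma it turned Bcl11b 1452966_at to 0.00, Gata3 to 0.22, Tox 1442039_at to 0.50, Runx1 to 0.19, 1.03, 0.95 and 0.69, Ikzf1 to 0.54 and 0.85, Ets1 to 0.20, 0.33 and 0.94, Myb to 0.05, 0.15 and 0.05, and Zbtb7b 1420663_at to 0.78. From control to lymphoma it turned Bcl11b 1435227_at to 0.03, Gata3 to 1.08, Tox to 0.52, 0.80 and 1.12, Runx1 to 0.71, 1.05, 1.39 and 0.50, Ikzf1 to 1.16 and 1.03, Ets1 to 0.91 and 1.04, Myb to 0.94, 1.10 and 1.02, and Zbtb7b to 0.92 and 0.97. The cause was not tested.

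The other alternatives turned no call, but some values that did not pass changed sign. Before transformation the leading sets of Runx3 and Runx1 went as low as -0.21 and -0.03, against 0.63 and 0.05 in the main analysis. From there to lymphoma that of Runx3 went as low as -0.06, against 0.30. Member genes called before transformation were 2 with median centring, 1 with all groups in 1 fit, 1 among mice 1 and 2, 2 among mice 3 and up, and 1 among mice with male signals. Among mice 1 and 2 they were 5 and 4 in the lymphoma comparisons, and with median centring 7 and 7. All probe sets called were 1479, 4816 and 5619 with 1 probe set per gene, where fewer are tested, 1593 before transformation with all groups in 1 fit, 1825 there among mice with male signals, and 5448 from before transformation to lymphoma among mice 1 and 2. Leaving out 1 mouse gave 3 to 5, 7 to 8 and 7 to 10 member genes, and 2146 to 3020, 7054 to 9334 and 8385 to 10663 probe sets. With the mouse number as a replicate block, 4, 9 and 8 member genes and 2800, 9263 and 8872 probe sets were called; Runx3 rose from before transformation to lymphoma (0.53), and Gata3 (-0.25) and Runx1 (-0.75) were lost from control to lymphoma. With sets of mouse numbers as a block, 4, 8 and 9 member genes were called. The Satb1 falls in lymphomas passed in every alternative run for the leading set. Signals at the floor limit Satb1 1439315_at and Notch1.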
